A study of Mus musculus with 6 samples.

Results

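Chondroitin sulfate proteoglycans of brain matrix and their direct partners were followed through cultures of mouse glioma cells, profiled cell by cell in 6 RNA-seq libraries. The 9 genes, of 54446 listed, were Bcan, Ncan, Vcan and Acan, which encode brevican, neurocan, versican and aggrecan, the transmembrane proteoglycans Cspg4 and Cspg5, the receptor phosphatase Ptprz1, and the matrix proteins Hapln1 and Tnr. They were picked by gene symbol, with their levels in these libraries already known, so that values between the cultures are given below as a description without a test. GL261 is an established mouse glioma line, grown here in a differentiation medium with fetal calf serum (2 libraries). GL261-GSCs is the culture labelled glioblastoma stem cell, grown in defined stem cell medium (4 libraries). The labels name no treatment, added allele or time in culture, do not say whether replicates came from separate cultures, and do not settle whether whole cells or nuclei were loaded. The cultures differ in medium as well as in name, and these cannot be told apart. A total of 31731 barcodes were called cells, and the called cells of a library held 33320530 to 79472306 UMIs, the counted RNA molecules.

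The lecticans (brevican, neurocan, versican and aggrecan) bind the polysaccharide hyaluronan with their amino-terminal end and tenascins with their carboxy-terminal end. Link proteins such as Hapln1 hold the lectican to the hyaluronan, and tenascin-R, the product of Tnr, joins lecticans to each other. In the brain these proteins make up the diffuse matrix and the perineuronal nets, and several are made by oligodendrocyte precursors. Ptprz1 is a receptor tyrosine phosphatase that carries chondroitin sulfate chains, binds pleiotrophin, midkine and contactin 1, and is also released as phosphacan.

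The labelled tissue is brain, and the summed level of 9 oligodendrocyte precursor markers was 335 and 342 CPM in GL261 and 1373 to 2361 CPM in GL261-GSCs, CPM being UMIs per 1000000 UMIs of a library. The marker sums are not scaled further, and the levels of single genes by library given below are CPM after TMM scaling. Sox10 alone made up 314 and 329 CPM of the GL261 sums and was at 306 to 385 CPM in GL261-GSCs, and Neu4 was at 0 in all 4 GL261-GSCs libraries. The 5 astrocyte markers summed to 8.09 and 7.21 CPM in GL261 and to 61.6 to 92.1 CPM in GL261-GSCs, nearly all of the latter Slc1a3 (61.6 to 91.8 CPM). Aldh1l1 went the other way, from 6.75 and 5.96 CPM in GL261 to at most 0.0153 CPM in GL261-GSCs. Gfap did so too, from 1.17 and 1.25 CPM to at most 0.0600 CPM, and Aqp4 was at 0 in every library. The 5 oligodendrocyte markers summed to 136 and 218 CPM in GL261 and to 126 to 149 CPM in GL261-GSCs, with Mbp lower in GL261-GSCs (34.7 to 71.1 CPM against 135 and 218) and Mog and Opalin higher. The 4 neuron markers summed to 80.8 and 84.7 CPM in GL261 and to 38.5 to 90.2 CPM in GL261-GSCs, with Rbfox3 at 0 in every library. Tubb3 was lower in GL261-GSCs, at 46.2, 25.6, 4.18 and 4.86 CPM in replicates 1 to 4 against 80.8 and 84.7 CPM. Syt1 was higher, at 1.16, 12.8, 51.9 and 85.4 CPM against 0.0141 and 0.0304 CPM. The 5 fibroblast and mural markers summed to 462 and 526 CPM in GL261 and to 12.5 to 26.9 CPM in GL261-GSCs. In GL261 nearly all of it was Col1a1 (235 and 258 CPM) and Acta2 (223 and 263 CPM). Pdgfrb was at 4.69 and 4.64 CPM there, Lum at 0.0141 and 0 CPM, and Rgs5 at 0 in both libraries. The 5 microglia and blood markers summed to at most 12.3 CPM in any library. In these summed values, fewer cells of a kind and less RNA per cell cannot be told apart. Pairs of libraries shared 32 to 59 cell barcodes, against 26.1 to 57.9 by chance.

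Each lectican gene lies next to a link protein gene. On GRCm38 (GENCODE M21), Vcan (chr13:89655312-89742509, minus strand) and Hapln1 (chr13:89539796-89611652, plus strand) are neighbours 43659 bases apart, and Bcan (chr3:87987531-88000230, minus) has Hapln2 on one side and Nes on the other. Ncan (chr8:70093085-70120873, minus) neighbours Hapln4, and Acan (chr7:79053483-79115099, plus) neighbours Hapln3. The others are Ptprz1 (chr6:22875502-23052916, plus), Tnr (chr1:159523769-159931729, plus), Cspg4 (chr9:56865033-56899870, plus) and Cspg5 (chr9:110243783-110262576, plus).

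The 250 bases before the RefSeq gene start (GRCm38.p6, given on the strand of the gene) are shown for Ptprz1 and Tnr, which had 10 and 4 UMIs in all GL261 cells, and for Bcan and Vcan, which were detected in both cultures. Capitals mark the searched motifs on either strand: the GC box GGGCGG and the SOX-type motif ACAAAG. The other motifs searched were ACAATG, the E-boxes CAGATG and CAGCTG, and TATAAA. No marked motif overlaps another.
Ptprz1: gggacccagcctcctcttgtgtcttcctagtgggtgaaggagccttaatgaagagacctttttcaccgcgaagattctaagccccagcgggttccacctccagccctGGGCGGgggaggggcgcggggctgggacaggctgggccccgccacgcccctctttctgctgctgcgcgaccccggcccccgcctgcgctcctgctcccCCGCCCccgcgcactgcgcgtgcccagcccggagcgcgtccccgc
Bcan: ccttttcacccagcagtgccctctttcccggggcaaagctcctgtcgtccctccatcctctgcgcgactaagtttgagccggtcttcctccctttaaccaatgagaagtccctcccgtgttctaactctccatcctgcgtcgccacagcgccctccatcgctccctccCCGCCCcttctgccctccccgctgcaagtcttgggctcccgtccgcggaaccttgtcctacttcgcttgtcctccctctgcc
Vcan: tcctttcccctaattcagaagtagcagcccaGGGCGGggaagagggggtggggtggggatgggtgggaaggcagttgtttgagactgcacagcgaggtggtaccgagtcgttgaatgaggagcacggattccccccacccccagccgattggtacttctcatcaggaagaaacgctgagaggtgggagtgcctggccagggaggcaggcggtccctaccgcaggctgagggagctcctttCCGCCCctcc
Tnr: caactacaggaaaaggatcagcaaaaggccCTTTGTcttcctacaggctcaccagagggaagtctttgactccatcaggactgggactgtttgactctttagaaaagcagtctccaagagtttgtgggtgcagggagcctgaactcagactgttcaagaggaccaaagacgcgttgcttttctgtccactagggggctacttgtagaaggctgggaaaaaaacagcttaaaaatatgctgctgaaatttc
The windows are chr6:22875252-22875501 for Ptprz1, chr3:88000357-88000606 for Bcan, chr13:89742513-89742762 for Vcan and chr1:159523519-159523768 for Tnr. GC content was 71.6% for Ptprz1, 62.4% for Vcan, 62.0% for Bcan and 46.8% for Tnr, against a median of 52.4% over 32851 such windows. The GC box was found 2 times in Ptprz1 and Vcan, 1 time in Bcan and 0 times in Tnr, and 32.7% of all windows held it. ACAAAG was found in Tnr alone of these 4, 1 time, and in 16.5% of all windows. A match is a description of the letters and no evidence of a binding site. So Ptprz1 and Tnr, both near 0 UMIs in GL261, differ in base composition before the start. Of the 9 genes, 8 have an entry in the RefSeq promoter table used here.

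Of the 9 genes, 7 lay higher in all GL261-GSCs libraries than in both GL261 libraries, 1 (Acan) lay lower and 1 (Cspg4) overlapped between the cultures. Over all 18439 genes that passed the filter on low counts, the libraries of the cultures did not overlap for 28.7% on the higher and 28% on the lower side. Of the 9 genes, 8 passed that filter, and Acan did not. No reading is drawn from this count, since the genes were chosen with the contrast known.

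**Figure D1:**
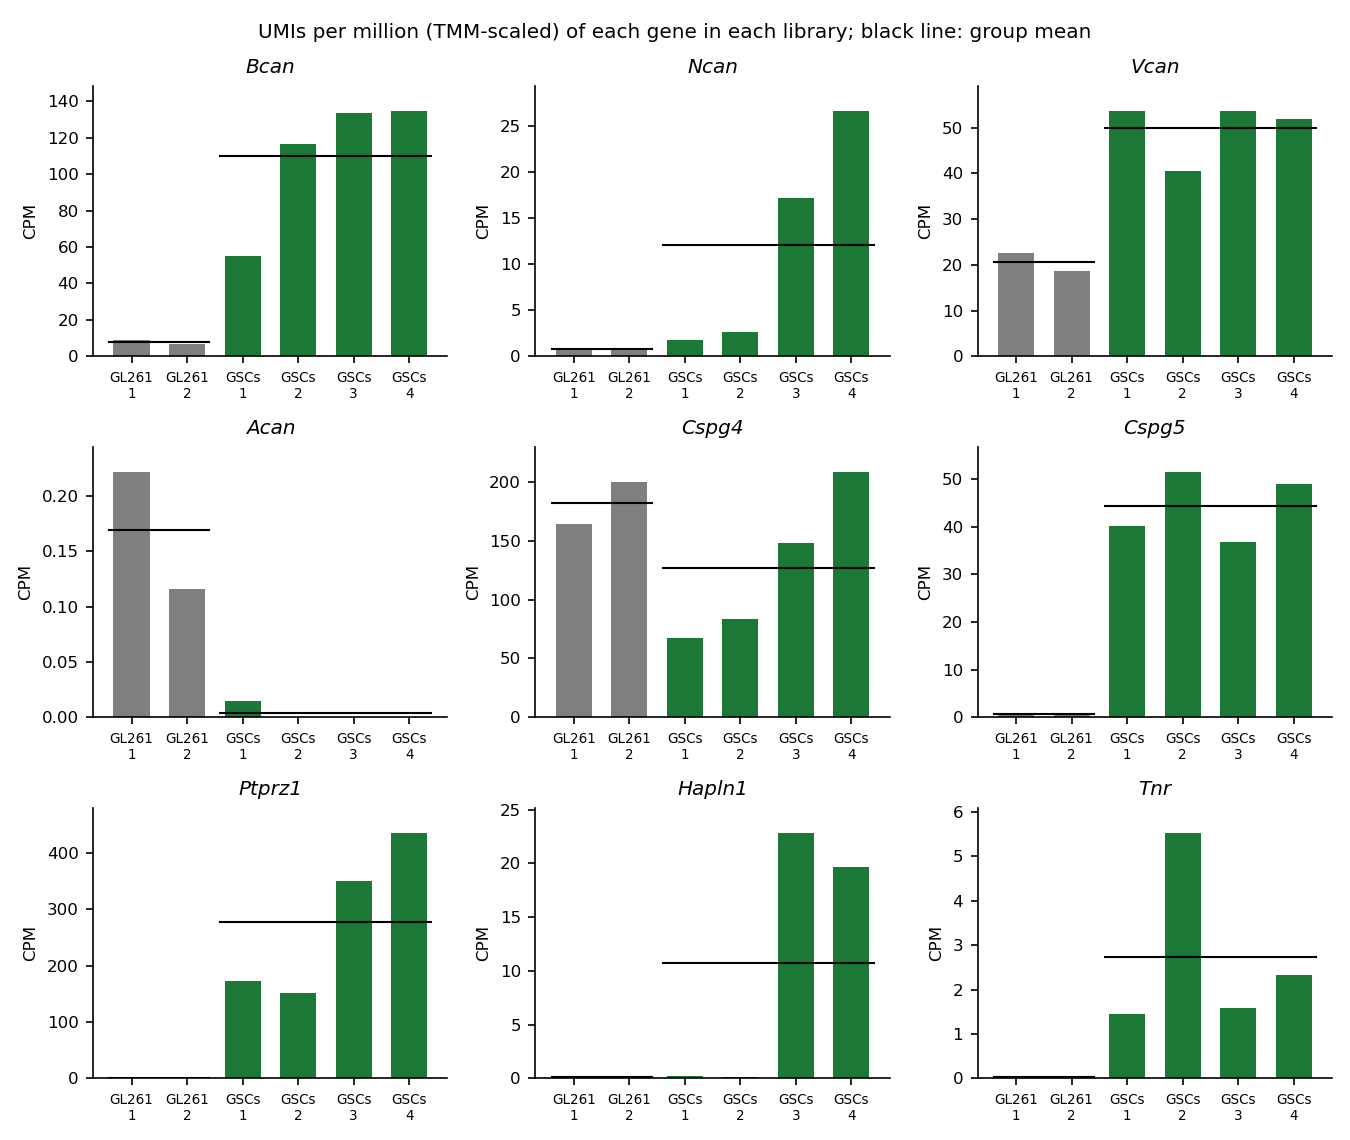
Level of each gene (CPM, linear axes from 0, a separate axis per gene) in the 2 GL261 libraries (grey) and the 4 GL261-GSCs libraries (green), with the group mean as a black line. Hapln1 and Ncan stand high in GL261-GSCs replicates 3 and 4, at 19.6 to 22.9 and 17.2 to 26.7 CPM, and Cspg4 overlaps between the cultures.

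Among the lecticans, Bcan, the brain-specific brevican gene, was at 8.70 and 6.92 CPM in GL261 replicates 1 and 2. In GL261-GSCs replicates 1 to 4 it was at 55.1, 117, 134 and 135 CPM. Replicate 1 thus had less than the other GL261-GSCs libraries, though more than either GL261 library. The fitted difference was 3.82 on the log2 scale (SE 0.44). In GL261-GSCs replicate 1 the 453 chromosome 3 genes with an average log2 CPM of at least 3 had a median log2 ratio of -0.39 to the mean of the other 3 GL261-GSCs libraries, against 0.06 over all such genes. Bcan lies on that chromosome, and the part of this shift in its level was not tested. Its neighbour Nes, the nestin gene 7079 bases away, went the other way, from 1183 and 1265 CPM in GL261 to 312 to 563 CPM in GL261-GSCs.

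Vcan, which encodes versican, was at 22.7 and 18.7 CPM in GL261. It was at 53.7, 40.6, 53.7 and 51.9 CPM in GL261-GSCs replicates 1 to 4, a log2 difference of 1.27 (SE 0.18). The 4 GL261-GSCs libraries were close to each other, and all lay above GL261. Vcan was the least different of the 7 genes that were higher in GL261-GSCs, and the only one of them with over 10 CPM in GL261.

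Ncan, the neurocan gene, was at 0.889 and 0.679 CPM in GL261. In GL261-GSCs replicates 1 to 4 it was at 1.79, 2.61, 17.2 and 26.7 CPM. All 4 lay above GL261, replicates 3 and 4 by far more than replicates 1 and 2, so the fitted log2 difference of 3.94 has an SE of 1.30. The highest GL261-GSCs library had 14.9 times the level of the lowest.

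Acan, the aggrecan gene, was rare everywhere. It had 15 and 7 UMIs in GL261 replicates 1 and 2, and 1, 0, 0 and 0 UMIs in the GL261-GSCs libraries. Relative to the TMM-scaled library sizes it was 43.8 times lower in GL261-GSCs, with a 95% counting interval of 7.09 to 1809 that covers counting error only. Aggrecan was therefore the lectican whose few UMIs came almost entirely from the serum-grown line.

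Hapln1, the link protein gene, separated the GL261-GSCs libraries from each other. It had 4 and 6 UMIs in GL261 replicates 1 and 2, and 14, 8, 1829 and 715 UMIs in GL261-GSCs replicates 1 to 4. As levels these were 0.0593 and 0.0994 CPM in GL261, and 0.212, 0.110, 22.9 and 19.6 CPM in GL261-GSCs. Replicates 1 and 2 of GL261-GSCs were a little above GL261 on few UMIs, while replicates 3 and 4 were far above, so that the fitted log2 difference of 7.05 has an SE of 2.75 and rests on the latter libraries. Its neighbour Vcan did not show this pattern. The 325 chromosome 13 genes, taken as for chromosome 3 above, had median log2 ratios of 0.27, 0.05, -0.18 and -0.16 in replicates 1 to 4. Over all such genes the medians were 0.06, 0.04, -0.002 and -0.08. The part of these shifts in the level of Hapln1 was not tested. The highest-to-lowest ratio of Hapln1 among the GL261-GSCs libraries was 207, and 18 of the 18439 genes tested had a larger one.

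The other link protein genes had few UMIs. Hapln2, next to Bcan, had 2 UMIs over the GL261 and 94 over the GL261-GSCs libraries, 23.6 times higher (95% counting interval 6.35 to 198), and passed the test between the cultures (edgeR, adjusted p = 0.0131). Hapln4, next to Ncan, was at 0.193 and 0.232 CPM in GL261 and at 0 to 0.0607 CPM in the GL261-GSCs libraries (log2 difference -2.17, SE 0.62, edgeR adjusted p = 0.0394). Leaving out either GL261 library ended both calls, with adjusted p-values up to 0.103 for Hapln2 and 0.240 for Hapln4. The Hapln4 call was also lost without GL261-GSCs replicate 2 or 3 (0.0666 and 0.0779) and with DESeq2's Wald test (0.0844). Hapln3, next to Acan, was not tested (2 UMIs in the serum-grown line, 1 in GL261-GSCs).

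Tnr, the tenascin-R gene, had 3 and 1 UMIs in GL261 and 95, 401, 127 and 85 UMIs in GL261-GSCs replicates 1 to 4. The levels in GL261-GSCs were 1.44, 5.53, 1.59 and 2.34 CPM, with replicate 2 the highest, and in GL261 0.0444 and 0.0166 CPM. The fitted log2 difference was 6.37 (SE 0.94) on those 4 GL261 UMIs. Tnc, which encodes the related tenascin-C and is not among the 9 genes, was at 0.133 and 0.0663 CPM in GL261. It was at 26.8, 75.6, 0.375 and 0.742 CPM in GL261-GSCs replicates 1 to 4. Tnc was thus high in replicates 1 and 2, the libraries in which Hapln1 and Ncan were low, and it did not pass the test between the cultures (log2 difference 7.97, SE 2.83, edgeR adjusted p = 0.0749). Without GL261-GSCs replicate 3 or 4 the adjusted p was 0.0458 or 0.0496, and over all alternatives it ranged from 0.000262 to 0.364.

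**Figure D2:**
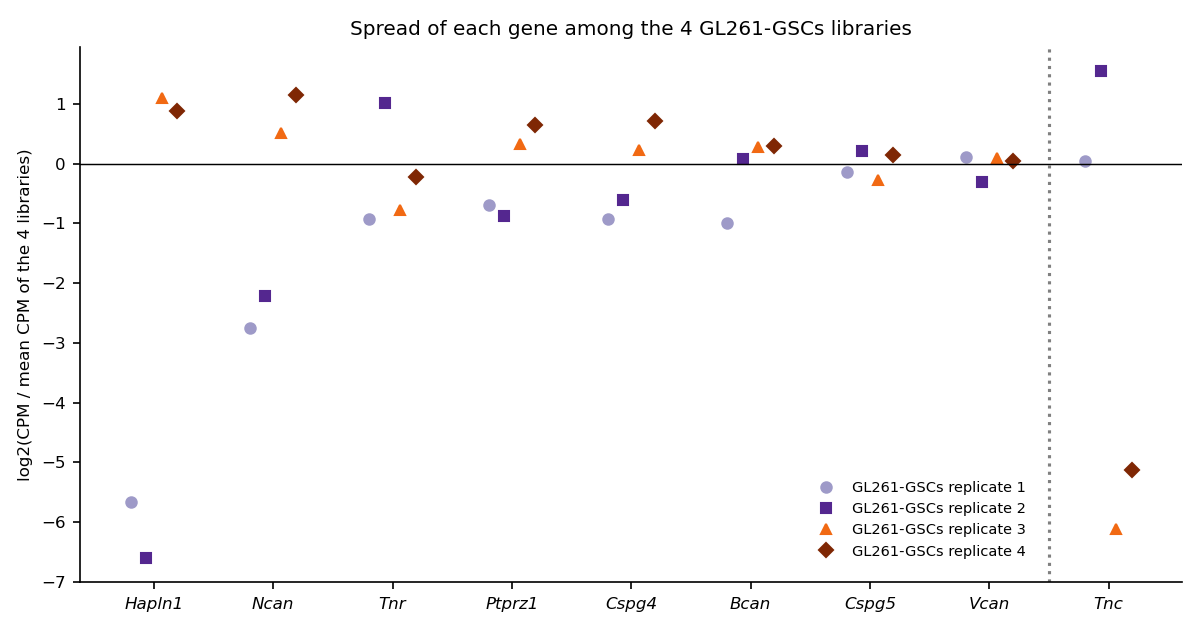
Log2 of the CPM in each of the 4 GL261-GSCs libraries over their mean, for the 8 of the 9 genes that passed the count filter and, right of the dotted line, Tnc. Hapln1 and Ncan are low in replicates 1 and 2, Tnc is low in replicates 3 and 4, and Vcan and Cspg5 vary little.

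Across the GL261-GSCs libraries the genes differed in the size of their spread. Bcan, Ncan, Cspg4, Ptprz1 and Hapln1 were higher in both of replicates 3 and 4 than in both of replicates 1 and 2. Vcan, Cspg5 and Tnr did not show that order. The libraries also differed in depth, with medians of 15374.5, 11889.5, 10638 and 6670 UMIs per called cell in replicates 1 to 4. Median mitochondrial shares were 1.04%, 1.11%, 1.26% and 1.35%. Called cells held 56.7%, 65.7%, 65.5% and 41.2% of the UMIs of the library. The part of depth and RNA quality in the order of the replicates was not tested. On log2(CPM + 0.1), the SD over the 4 libraries was 0.20 for Vcan and 0.23 for Cspg5, near the median of 0.25 over 10781 genes with an average log2 CPM of at least 2. It was 0.62 for Bcan, 0.75 for Cspg4 and Ptprz1, 0.85 for Tnr, 1.91 for Ncan and 3.69 for Hapln1. Of those genes, 99.3% varied less than Ncan and 99.9% less than Hapln1.

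Of the membrane proteoglycans, Cspg4 encodes NG2, a surface marker of oligodendrocyte precursors and pericytes. It was at 164 and 200.2 CPM in GL261 and at 67.2, 83.3, 148 and 209 CPM in GL261-GSCs replicates 1 to 4. The cultures overlapped, with GL261-GSCs replicates 1 to 3 below both GL261 libraries and replicate 4 above them (log2 difference -0.52, SE 0.44). Cspg4 was the only one of the 9 genes without separate groups. Pdgfra, the other classic precursor marker, was at 7.97 and 4.84 CPM in GL261 and at 56.7, 88.4, 168 and 182 CPM in GL261-GSCs (log2 difference 4.27, SE 0.61, edgeR adjusted p = 0.00308).

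Cspg5 encodes neuroglycan C, a transmembrane proteoglycan of neural tissue. It was at 0.696 and 0.646 CPM in GL261 and at 40.2, 51.6, 36.7 and 48.9 CPM in GL261-GSCs replicates 1 to 4. All GL261-GSCs libraries lay together, far above GL261, at a log2 difference of 6.04 (SE 0.25). Of the 6 among the 9 genes with a log2 difference over 3, Cspg5 varied least among the GL261-GSCs libraries. Its neighbour Smarcc1, a chromatin remodeller gene 3604 bases away, differed little, at 123 and 130.4 CPM in GL261 and 137 to 187 CPM in GL261-GSCs.

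Ptprz1 had 9 and 1 UMIs in GL261 replicates 1 and 2, that is 0.133 and 0.0166 CPM. It was at 172, 151, 350 and 436 CPM in GL261-GSCs replicates 1 to 4. All 4 libraries were far above GL261, and replicates 3 and 4 were above replicates 1 and 2. The fitted log2 difference, 11.77 (SE 0.96), rests on 10 GL261 UMIs. It was 10.99 without GL261 replicate 2, and without replicate 1 only 1 GL261 UMI remained, so that no fitted value is given.

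The ligands of Ptprz1 differed among themselves. Ptn, which encodes pleiotrophin, was at 1.11 and 2.07 CPM in GL261 and at 39.0, 161, 335 and 326 CPM in GL261-GSCs (log2 difference 7.08, SE 1.12, edgeR adjusted p = 0.00460, and 0.0537 without GL261 replicate 1). Cntn1, the gene of the adhesion molecule contactin 1, had 0 UMIs in both GL261 libraries. In GL261-GSCs it was at 66.5, 145, 309 and 380.2 CPM, at least 8938-fold higher than the 3 UMIs over the group that a count of 0 allows. Mdk, the gene of the related ligand midkine, lay at 0.182 to 0.288 CPM in every library, with 29 UMIs over the GL261 and 60 over the GL261-GSCs libraries, and did not pass the test (log2 difference 0.04, SE 0.36, edgeR adjusted p = 0.941). Receptor, pleiotrophin and contactin 1 were thus all abundant in GL261-GSCs and scarce in GL261, while midkine was scarce in both.

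The share of cells with a UMI was counted as well. To compare libraries of different depth, each cell was thinned to 2000 UMIs. Ptprz1 was found in 0.0416% of the GL261 replicate 1 cells and in 0 of 5002 cells of replicate 2. A count of 0 there allows up to 0.0600% of cells with a UMI at this depth, and sets no limit on the cells that express the gene. The 4 GL261-GSCs replicates, in order, had it in 30.3%, 27.2%, 50.9% and 60.0% of their cells (exact Clopper-Pearson 95% interval 28.9% to 31.7% in replicate 1 and 58.6% to 61.5% in replicate 4). Free RNA, estimated from barcodes with 100 to under 1000 UMIs, would by itself have given 0.826%, 0.758%, 3.09% and 8.29%. Unthinned, 74.7% to 91.9% of the GL261-GSCs cells held a Ptprz1 UMI, where free RNA at the full depth would give 3.57% to 20.1%.

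Bcan was found in 1.52% and 1.18% of thinned GL261 cells and in 11.7%, 21.3%, 24.8% and 25.4% of GL261-GSCs cells, where free RNA would give up to 2.75%. Cspg4 was found in 24.2% and 28.2% of GL261 cells and in 13.8%, 16.7%, 27.1% and 38.2% of GL261-GSCs cells. For Bcan the order of the libraries was that of their summed levels, and for Cspg4 GL261-GSCs replicate 3 and GL261 replicate 1 changed places. Vcan was found in 3.30% to 4.22% of GL261 and 8.50% to 11.5% of GL261-GSCs cells, and Cspg5 in 0.120% to 0.166% and 7.31% to 10.5%. Hapln1 was found in 0 of 4264 thinned cells of GL261-GSCs replicate 1, which had 14 Hapln1 UMIs before thinning (up to 0.0704% of cells with a UMI allowed at 2000 UMIs), and in 0.0170%, 5.06% and 4.39% of replicates 2 to 4, where free RNA would give at most 0.633%. Even where it was highest, Hapln1 was therefore seen in a minority of cells, and unthinned in 19.3% of the cells of replicate 3. Ncan was found in 0.375%, 0.528%, 3.57% and 6.27% of GL261-GSCs cells and Tnr in 0.289% to 1.18%. Acan was found in 4 and 1 cells of the GL261 replicates and in 0 cells of each GL261-GSCs library.

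**Figure D3:**
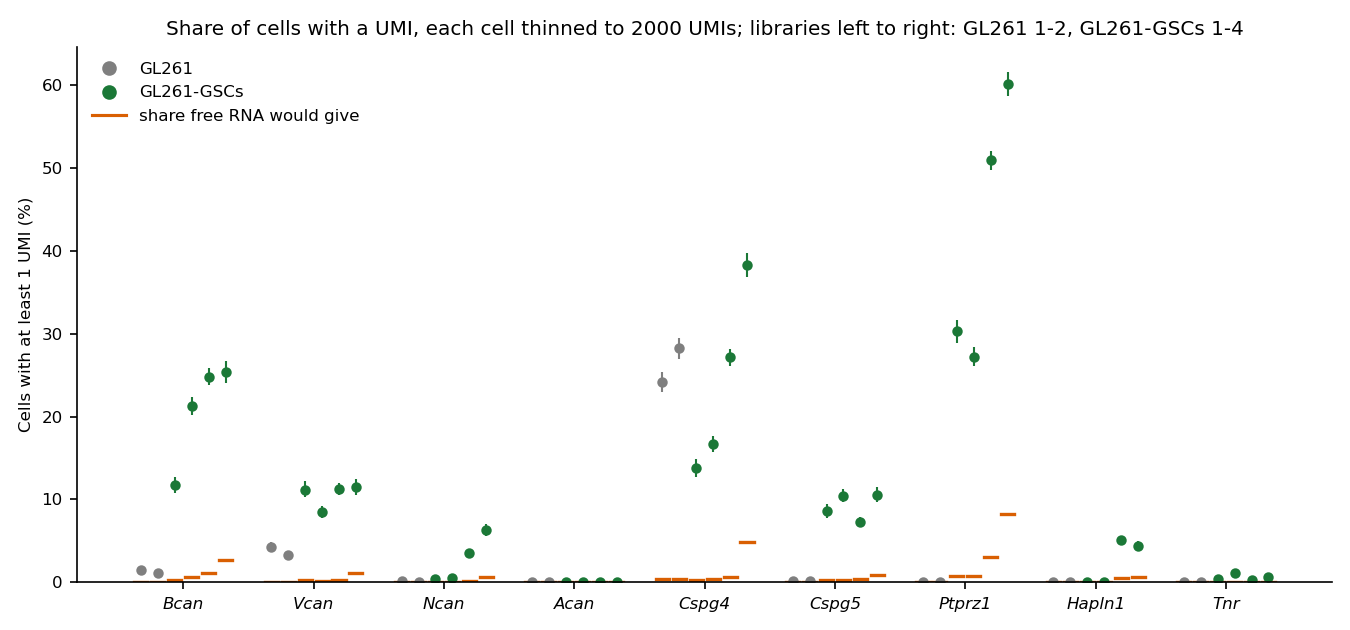
Percent of cells with at least 1 UMI of each gene after thinning each cell to 2000 UMIs, by library, with exact 95% intervals that cover counting error only, and in orange the share that free RNA would give. Ptprz1 reaches 60.0% in GL261-GSCs replicate 4, and Cspg4 is the only gene found in over 20% of GL261 cells.

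At 2000 UMIs per cell, a minority of GL261-GSCs cells had UMIs of several of the 9 genes. The median was 1 gene per cell in each GL261-GSCs library, and 45.9%, 42.7%, 25.5% and 17.8% of the cells in replicates 1 to 4 had 0. These counts hold at that depth, and the share that free RNA would give was not computed for them. Unthinned, the mean share of cells over the GL261-GSCs libraries was 84.2% for Ptprz1, 61.3% for Cspg4 and 59.7% for Bcan. It was 35.3% for Vcan, 33.8% for Cspg5 and at most 9.93% for each of the rest. The number of genes per unthinned cell was not counted. At 2000 UMIs per cell, 3.87%, 5.59%, 14.1% and 19.6% of the cells in replicates 1 to 4 had UMIs of 3 or more of the genes, against 0.0416% and 0.0400% of GL261 cells. Within the GL261-GSCs libraries most pairs were found together somewhat more often than their separate shares would give. The median ratio of observed to expected double-positive cells was 1.24, 1.30, 1.23 and 1.16 over the 10, 10, 19 and 20 pairs with at least 20 expected cells. Pairs of a member with Cd44, the hyaluronan receptor gene, had medians of 1.20, 1.18, 1.11 and 1.10, so ratios a little over 1 were not limited to the 9 genes. The highest ratio in replicates 1 to 3 was that of Vcan with Cspg4, at 1.49, 1.65 and 1.46, and in replicate 4 that pair was at 1.28 and Vcan with Hapln1 was highest, at 1.58 (36 cells with both). Ptprz1 and Ptn were at 1.13, 1.07 and 1.03 in replicates 2 to 4. In replicate 1 they were at 0.68: 5.35% of cells with Ptprz1 had Ptn, against 8.91% of cells without it. These ratios are a description of cells that share a library, and carry no test.

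Profiles like those of the 9 genes were looked up over the 6 libraries, among genes with an average log2 CPM of at least 3, by the root mean square difference of log2(CPM + 1) after centring each profile. The measure was computed for the 8 genes with at least 500 UMIs, and gives likeness over 6 libraries in 2 groups, not shared control. Nearest to Ptprz1 were Gap43 (0.41), Cntn1 (0.46) and Nts (0.46). Nearest to Cspg5 were Rap1gap (0.18), Vav3 (0.21) and Amph (0.23), and nearest to Bcan were St3gal6 (0.13), Arl4a (0.17) and Nckap5 (0.19). Among those nearest to Vcan were Hmgn3 (0.09) and Aacs (0.10), and nearest to Cspg4 were Fah (0.12), Fam214b (0.15) and Ecm1 (0.17). Ncan and Hapln1, high in GL261-GSCs replicates 3 and 4, had nearest genes of that same shape, which follows from how those were picked. For Ncan these were Bnip3 (0.20), Inpp4b (0.31) and Ankrd37 (0.32), with Bnip3 at 10.1 and 13.4 CPM in GL261 and at 19.7, 22.4, 157 and 209 CPM in GL261-GSCs. For Hapln1 they were Srgap3 (0.34), Dysf (0.44) and Tmsb4x (0.51), with Tmsb4x at 56.0 and 48.8 CPM in GL261 and at 71.4, 139, 1074 and 1124 CPM in GL261-GSCs. Nearest to Tnr were Adam12 (0.27), G0s2 (0.31) and Tgfb3 (0.34). Tnr is low, so the 1 added to each CPM shrinks its fold, and these genes differed less in fold than Tnr. Adam12 was at 14.0 and 11.4 CPM in GL261 and at 24.7, 53.8, 23.3 and 28.5 CPM in GL261-GSCs.

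The remaining genes of the proteoglycan pathway, 107 in 5 lists, were tested between the cultures in the fit over all genes, without blocking (edgeR quasi-likelihood test, Benjamini-Hochberg adjustment). Of all 18439 genes tested, 29.9% passed at an adjusted p under 0.05, 2920 (15.8%) higher and 2594 (14.1%) lower in GL261-GSCs. Scaling by library size alone moved the split to 3491 higher and 2034 lower and the median log2 difference of all genes from 0.04 to 0.18. Of the 107 listed genes 86 were tested, and 20 were higher and 27 lower, with a median log2 difference of 0.01 against 0.04 over all genes. Without GL261 replicate 1 these counts were 9 and 15, and without replicate 2 they were 10 and 16.

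Of 28 listed genes that build the chondroitin sulfate chain 24 were tested, 2 passed as higher and 9 as lower, and the median log2 difference was -0.34. Without either GL261 library 1 passed as higher and 3 as lower. Chsy3, a chain-polymerising synthase gene, was at 12.6 and 11.5 CPM in GL261 and at 2.59, 2.57, 1.98 and 3.19 CPM in GL261-GSCs (log2 difference -2.23, SE 0.23, adjusted p = 0.000815). Dse, whose product turns glucuronic into iduronic acid and so makes dermatan sulfate, was lower (log2 difference -1.64, SE 0.14, adjusted p = 0.000477). Papss2, whose product makes the activated sulfate, was at 5.51 and 5.10 CPM in GL261 and fell by 2.86 (SE 0.33, adjusted p = 0.00136). Papss1, whose product makes it too, was named after its values were seen. It was at 92.7 and 102 CPM in GL261 and at 58.9 to 88.5 CPM in GL261-GSCs, and did not pass (-0.31, SE 0.18, adjusted p = 0.246). The rises were in Chst3, the chondroitin 6-sulfotransferase gene, from 6.27 and 6.74 CPM to between 15.0 and 17.9 CPM (log2 difference 1.31, SE 0.16, adjusted p = 0.00179), and in Ust, a uronyl 2-sulfotransferase gene (1.07, SE 0.24, adjusted p = 0.0179, and up to 0.139 without a GL261 library).

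Of the matrix partners, 13 of 15 were tested, 3 passed as higher and 4 as lower, and 0 and 2 without either GL261 library. Fn1, the fibronectin gene, was at 601 and 682 CPM in GL261 and at 2.71, 2.75, 0.725 and 0.659 CPM in GL261-GSCs (log2 difference -8.52, SE 0.66, adjusted p = 0.000312). Cd44 fell by 1.19 (SE 0.17, adjusted p = 0.00325), from 149 and 132 CPM to between 53.0 and 76.7 CPM. Fbln2, the gene of a matrix protein that binds lecticans, had 33 UMIs over the GL261 and 0 over the GL261-GSCs libraries, at least 21.9-fold lower against 3 UMIs over the group (adjusted p = 0.00927, not called without either GL261 library, up to 0.0925). Fbln1 was at 0.0593 and 0.149 CPM in GL261 and at 0.334, 2.24, 16.1 and 13.5 CPM in GL261-GSCs, again highest in replicates 3 and 4 (log2 difference 6.26, SE 1.84, adjusted p = 0.0420). Leaving out either GL261 library, GL261-GSCs replicate 3 or GL261-GSCs replicate 4 ended that call, as did limma-voom (adjusted p = 0.220). The other rises were Hapln2, given above, and Tnxb, a tenascin-X gene (1.10, SE 0.31, adjusted p = 0.0374, lost without 4 of the 6 libraries in turn). Has2, which makes hyaluronan, was at 59.1 and 77.0 CPM in GL261 and at 7.46, 14.6, 42.8 and 53.8 CPM in GL261-GSCs. All GL261-GSCs libraries were below GL261, yet Has2 did not pass (log2 difference -1.20, SE 0.70, adjusted p = 0.237, and 0.126 to 0.554 without a single library).

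Among other genes whose products can carry chondroitin sulfate, 7 of 13 were tested, 3 were higher and 2 lower. Tmeff2, a transmembrane proteoglycan gene, was at 0.0444 and 0.0497 CPM in GL261 (6 UMIs in all) and at 168, 139, 192 and 173 CPM in GL261-GSCs (log2 difference 11.75, SE 0.30, adjusted p = 1.68e-05). Nrp1, a semaphorin co-receptor gene, did the reverse, at 113 CPM in both GL261 libraries and 0.0824 to 0.227 CPM in GL261-GSCs (log2 difference -9.21, SE 0.26, adjusted p = 1.84e-05). Bgn, the biglycan gene, had 967 UMIs over the GL261 and 1 over the GL261-GSCs libraries, 1927 times lower (95% counting interval 345 to 76174; adjusted p = 0.000154). Aplp2 (0.97, SE 0.17, adjusted p = 0.00762) and Col9a2 (1.57, SE 0.33, adjusted p = 0.0126) were the other rises, and neither was called without either GL261 library.

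Among ligands and receptors 17 of 21 were tested, 6 were higher and 6 lower (2 and 4 without GL261 replicate 1, 3 and 5 without replicate 2). Besides Ptn, Cntn1 and Pdgfra above, L1cam, a neural adhesion molecule gene that binds neurocan, was lower (log2 difference -4.84, SE 0.35, adjusted p = 0.000236), from 220.3 and 251 CPM to between 4.57 and 12.1 CPM. Fgf2, a growth factor gene, fell by 4.56 (SE 0.45, adjusted p = 0.000732). Pdgfa, which encodes a ligand of Pdgfra, fell by 1.59 (SE 0.15, adjusted p = 0.000612), while its receptor gene rose.

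The list for cleaving the core proteins and chains holds 30 genes, 4 of them genes of protease inhibitors, and 25 were tested. Of these 6 were higher and 6 lower (6 and 4 without GL261-GSCs replicate 3). The inhibitor genes Timp1, Timp2 and Timp3 were among those lower. The proteases Adamts9 (log2 difference 5.10, SE 0.41, adjusted p = 0.000342) and Adamts20 (3.22, SE 0.30, adjusted p = 0.000548) belong to the family that cuts lecticans. Of the other members of that family that were listed and tested, named after their values were seen, Adamts1 was higher (2.76, SE 0.29, adjusted p = 0.000920), while Adamts4 (0.87, SE 0.27, adjusted p = 0.0521) and Adamts5 (-0.09, SE 0.23, adjusted p = 0.784) did not pass. Adamts9 was at 3.70 and 1.99 CPM in GL261 and at 65.1, 106, 101 and 119 CPM in GL261-GSCs. Mmp15, a membrane-bound metalloproteinase gene, rose by 2.70 (SE 0.16, adjusted p = 0.000123). Adam10 (-1.43, SE 0.15, adjusted p = 0.000951) and Mmp14 (-1.95, SE 0.54, adjusted p = 0.0347), protease genes named after their values were seen, were lower. Of the 4 genes of the inhibitors of such proteases, Timp1 fell by 3.39 (SE 0.25, adjusted p = 0.000250), Timp2 by 4.34 (SE 0.28, adjusted p = 0.000155) and Timp3 by 3.58 (SE 0.19, adjusted p = 9.56e-05). Timp4, also named after its values were seen, was at 0.459 and 0.0166 CPM in GL261 and at 0.485, 7.83, 1.20 and 0.824 CPM in GL261-GSCs, and did not pass (3.42, SE 1.59, adjusted p = 0.147). Timp3 was at 2335 and 3518 CPM in GL261 and at 223 to 270.4 CPM in GL261-GSCs. Beside the falls in Fn1, Bgn and Timp1 to Timp3 stands the fall in the fibroblast and mural marker sum given above. In GL261 that sum was nearly all Col1a1 and Acta2, and its part in the falls was not tested.

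**Figure D4:**
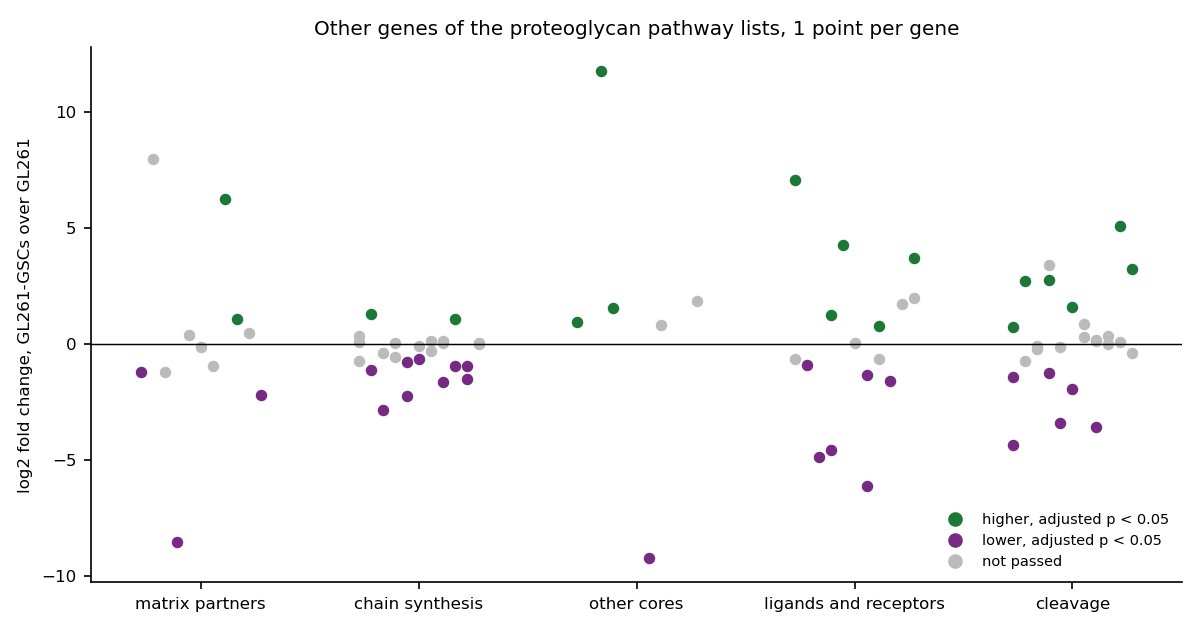
Log2 fold change, GL261-GSCs over GL261, of 82 of the 86 tested genes of the 5 pathway lists, 1 point per gene, spread sideways for legibility. Green passed as higher and purple as lower at an adjusted p under 0.05 (edgeR), and grey did not pass. The 4 genes with 0 to 3 UMIs in a culture (Hapln2, Fbln2, Bgn and Cntn1) are not drawn. Chain synthesis has 9 points in purple and 2 in green.

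The rule that lists the 9 genes used levels and shares per library, not differences between cells of a library, although the classes below were chosen with earlier results of these data known. Among cells of the GL261-GSCs libraries 3 comparisons were tested over the 4 libraries, with the library as a block, on cells thinned to 2000 UMIs. Each compared sums of 2 classes of cells per library (edgeR quasi-likelihood test, adjusted over all genes of the comparison). The classes come from the same cultures, so that medium and labels are shared. CPM of a class are per 1000000 thinned UMIs of its cells, without TMM scaling.

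Pdgfra-positive cells, those with a Pdgfra UMI, made up 10.7% to 32.4% of the cells of a GL261-GSCs library. Of 12281 genes 36.1% passed, 2029 (16.5%) higher in Pdgfra-positive cells and 2409 (19.6%) lower (1226 and 1791 without replicate 3). Of the 9 genes 8 were tested and 5 were higher. Vcan was at 93.9, 71.1, 104 and 98.3 CPM in the Pdgfra-positive cells of replicates 1 to 4, and at 64.4, 43.2, 54.8 and 58.5 CPM in the negative cells (log2 difference 0.64, SE 0.07, edgeR adjusted p = 4.01e-11). Cspg4 rose by 0.51 (SE 0.05, adjusted p = 1.42e-11), Ptprz1 by 0.47 (SE 0.05, adjusted p = 3.17e-11) and Ncan by 0.69 (SE 0.14, adjusted p = 4.08e-05), each in 4 of 4 libraries. For Ncan the direction in replicate 1 (2.18 against 1.97 CPM) rests on 2 UMIs in the positive and 15 in the negative cells. Bcan was higher by 0.23 (SE 0.06, adjusted p = 0.00130), also in 4 of 4 libraries. Cspg5 (0.14, adjusted p = 0.191), Hapln1 (0.24, adjusted p = 0.171) and Tnr (0.51, SE 0.29, adjusted p = 0.166) did not pass. Of the partners, Cntn1 was higher by 0.59 (SE 0.05, adjusted p = 2.00e-13), Cd44 by 0.25 (SE 0.07, adjusted p = 0.00350) and Ptn by 0.13 (SE 0.05, adjusted p = 0.0472), and Tnc did not pass (0.01, SE 0.12, adjusted p = 0.961). Of the transcription factor genes of the lineage, Olig2 was lower (-0.23, SE 0.05, adjusted p = 0.000244) and Sox10 did not pass (0.07, SE 0.05, adjusted p = 0.285). Of the 68 pathway genes tested besides Pdgfra, 30 were higher and 6 lower (3 lower without replicate 3), with a median log2 difference of 0.23 against 0.01 over all genes.

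Pdgfra-positive cells were shallower before thinning. In replicate 4 they had a median of 4934.5 UMIs, 2.76% mitochondrial UMIs and 1.41% Malat1, a nuclear RNA, against 7563.5 UMIs, 1.21% and 0.977% in the negative cells, and replicates 1 to 3 differed the same way. Restricted to cells with at least 5000 UMIs, a comparison added after the data were seen, Vcan, Cspg4, Ptprz1 and Ncan still passed, at adjusted p-values up to 0.000140, and Bcan did not (0.16, adjusted p = 0.0527). Without thinning all 8 genes passed, but so did more genes at large, 2984 higher and 3296 lower of 14856. Unthinned sums keep the difference in depth between the classes.

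Cells with at least 2 UMIs of a list of 12 myelin genes made up 28.7% to 37.0% of the cells and were compared with cells without any. Of 11586 genes 16.1% passed, 822 (7.09%) higher and 1047 (9.04%) lower (441 and 555 without replicate 3). Of the 9 genes 7 were tested and 5 were higher in the myelin-list-positive cells, each in 4 of 4 libraries. Cspg5 was at 54.4, 66.2, 46.6 and 72.8 CPM in the positive cells of replicates 1 to 4 and at 39.9, 50.4, 34.7 and 45.9 CPM in the negative cells (log2 difference 0.43, SE 0.08, adjusted p = 0.000116). Vcan rose by 0.42 (SE 0.08, adjusted p = 8.41e-05), Cspg4 by 0.39 (SE 0.06, adjusted p = 1.63e-06), Bcan by 0.35 (SE 0.06, adjusted p = 1.40e-05) and Ptprz1 by 0.26 (SE 0.05, adjusted p = 6.35e-05). Ncan (-0.13, adjusted p = 0.613) and Hapln1 (0.06, adjusted p = 0.865) did not pass. Pdgfra itself was higher (0.19, SE 0.05, edgeR adjusted p = 0.00984), so the myelin-list and Pdgfra-positive classes are not independent. Sox10 (0.28, adjusted p = 4.72e-05), Cntn1 (0.43, adjusted p = 2.35e-08) and Ptn (0.23, adjusted p = 0.00120) were also higher. Tnc (-0.26, adjusted p = 0.111), Olig2 (0.00, adjusted p = 0.999) and Cd44 (-0.02, adjusted p = 0.922) did not pass. Of the 69 pathway genes tested here, 16 were higher and 3 lower (14 and 5 without replicate 1), with a median log2 difference of 0.10 against 0.00 over all genes. The positive cells were the shallower class here too, at 5903 against 7592 median UMIs in replicate 4. They also had more mitochondrial UMIs (1.44% against 1.27% in replicate 4) and more Malat1 (1.25% against 0.995%), as in replicates 1 to 3, and the part of depth and RNA quality in the calls was not tested beyond the cells with at least 5000 UMIs. Every one of the 5 calls held in cells with at least 5000 UMIs and without any single library.

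Cycling cells, with at least 4 UMIs of 12 mitosis genes, made up 38.0% to 53.9% of the cells and were compared with cells without any such UMI. Of 11275 genes 34.3% passed, 1838 (16.3%) higher and 2032 (18.0%) lower in cycling cells (1051 and 1065 without replicate 3). Of the 9 genes 7 were tested, 2 were higher and 2 lower. Ptprz1 was at 228, 191, 478 and 613 CPM in the cycling cells of replicates 1 to 4 and at 164, 149, 361 and 526 CPM in the others (log2 difference 0.29, SE 0.07, adjusted p = 0.00355). Vcan was higher by 0.40 (SE 0.10, adjusted p = 0.00297) in 4 of 4 libraries. Cspg5 was lower in cycling cells (-0.38, SE 0.10, adjusted p = 0.00600), at 41.7, 52.6, 39.0 and 53.6 CPM in cycling cells and 56.4, 78.2, 42.2 and 61.6 CPM in the others. Bcan was lower too (-0.22, SE 0.07, adjusted p = 0.0253), but was not called without replicate 2, 3 or 4, where the adjusted p was at least 0.0614. Cspg5 was not called without replicate 2 (0.0559). Cspg4 (0.16, adjusted p = 0.111), Hapln1 (0.47, SE 0.20, adjusted p = 0.0723) and Ncan (-0.13, adjusted p = 0.624) did not pass. DESeq2's Wald test kept the call of Ptprz1 alone of the 9 genes, and called 913 genes higher and 943 lower over all 11275. Pdgfra itself was higher in cycling cells (0.83, SE 0.09, adjusted p = 2.16e-07), so the cycling and Pdgfra-positive classes are not independent, and Sox10 was lower (-0.23, SE 0.07, adjusted p = 0.0112). Of the 66 pathway genes tested here, 11 were higher and 15 lower in cycling cells (6 and 9 without replicate 3), with a median log2 difference of -0.05 against -0.02 over all genes. Before thinning the cycling cells had medians of 16574, 12900.5, 11701.5 and 6920.5 UMIs in replicates 1 to 4, against 13934, 10278.5, 9928 and 7612 in the others, so they were the deeper class in replicates 1 to 3. Their median mitochondrial share was 1.04%, 1.09%, 1.31% and 1.38%, against 1.06%, 1.20%, 1.19% and 1.22%, and Malat1 was higher in cycling cells in 4 of 4 libraries.

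**Figure D5:**
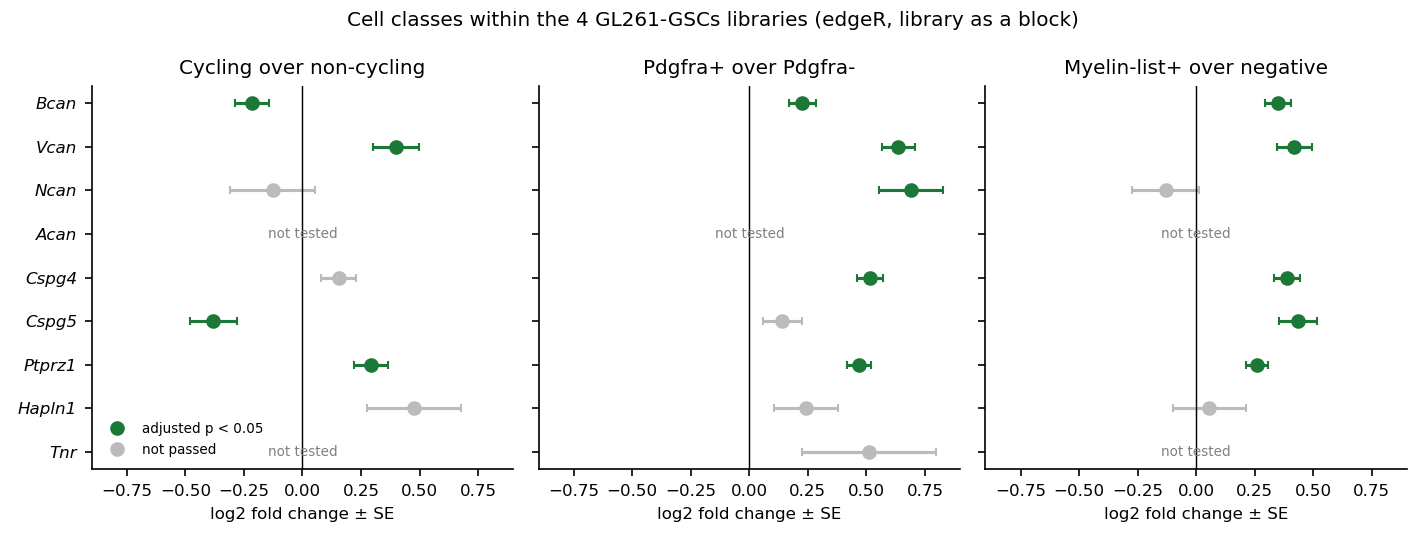
Log2 fold change ± SE of each gene between cell classes within the 4 GL261-GSCs libraries: cycling over non-cycling, Pdgfra-positive over negative, and myelin-list-positive over negative. Green passed at an adjusted p under 0.05 (edgeR), grey did not, and genes below the count filter are written as not tested. Vcan and Ptprz1 lie right of 0 in green in all 3 comparisons, while Cspg5 lies left of 0 for cycling and right of 0 for the myelin list.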

How the data were processed

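UMIs per gene and barcode were measured in 6 droplet-based 5' single-cell libraries. The matrices the authors deposited hold raw UMI counts for every barcode, unfiltered, and per the file headers come from Cell Ranger 4. The submitters' processing notes name the build mm10, and the annotation release was not given in the sources used. Gene identifiers (99.9%) were matched to GENCODE M21.

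A barcode was called a cell if it had 500 genes or more, under 10% mitochondrial UMIs, and UMIs of 10% or more of a reference, the 99th percentile among the 3000 largest barcodes. Doublets were not removed. Cells were not treated as replicates: counts were summed per library and tested with edgeR 4.0.16 (quasi-likelihood, TMM, filterByExpr, Benjamini-Hochberg, 2-sided, threshold 0.05) in R 4.3.3, tested on simulated data. P-values measure only the spread between libraries, which may be technical. SE is the log2 fold change divided by the square root of F. No fitted value is given for genes with 0 to 3 UMIs in a culture: those have a bound against 3 UMIs over the group, or a ratio with a 95% counting interval. For shares and classes of cells, cells were thinned to 2000 UMIs.

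The 9 genes, all lists and classes were chosen with earlier results of these data known. Named pathway genes are the 3 smallest p-values per list and direction, plus Ptn, Mdk, Cntn1, Tnc, Cd44, Has2 and Hapln2 to Hapln4. The genes of most similar profile were taken as the 3 nearest, and a gene among them is not reported here. Alternatives covered normalization (DESeq2 1.42.0 size factors, library size), DESeq2 and limma 3.58.1 voom tests, filters, cell calling, class thresholds, thinning and each library left out.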

Additional observations from a re-analysis of the deposited data

Results flagged for a closer look

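Over 17 sets of 4 GL261-GSCs values, 3 had a library whose gap to the nearest of the others was large against the range of the set. Chance gives this for about 1 in 20. The sets were level and share of cells of each of the 9 genes, without the share of Acan, which was 0 in every GL261-GSCs library. Vcan was lowest in replicate 2, at 40.6 CPM against 51.9 to 53.7 CPM in the other 3 libraries. The share of cells with a Vcan UMI was lowest in the same library, at 8.50% against 11.2% to 11.5%, so both flags describe the same library and gene. Acan was at 0.0152 CPM in replicate 1 against 0 CPM in the others, which is 1 UMI.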

How the results depend on the processing

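Leaving out each library in turn gave 1817 to 6193 genes called between the cultures in place of 5514, 9 to 23 pathway-list genes called higher in place of 20, and 15 to 29 lower in place of 27, with the lowest counts when either GL261 library was left out, where the other is assumed to vary like the GL261-GSCs. Within GL261-GSCs, leaving out a library gave 2 to 4 of the 9 genes called for cycling (2 without replicate 2), 5 to 6 for Pdgfra and 5 for the myelin list. DESeq2's Wald test called 1 of the 9 genes for cycling, and over all 11275 genes 913 higher and 943 lower. Unthinned sums called 8 of the 9 genes for Pdgfra, and over all 14856 genes 2984 higher and 3296 lower. Without the replicate block, that is without the library as a term, edgeR called 0 of the 9 genes in each class comparison, and 0 (cycling), 1 (Pdgfra) and 1 (myelin list) had an unadjusted p under 0.05. Few genes of any kind were called in that setting. Over all genes it called 285 higher and 73 lower of 11275 for cycling, 1 and 0 of 12281 for Pdgfra, and 6 and 0 of 11586 for the myelin list.

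The shared replicate numbers of GL261 and GL261-GSCs pair only replicates 1 and 2, whose deviations from the group means correlated at -0.01 and 0.07, and nothing in the labels ties them. With the replicate block edgeR called 6512 genes, 21 pathway-list genes higher and 30 lower, and the block leaves GL261-GSCs replicates 3 and 4 without a partner. Under it Has2 (adjusted p = 0.000698) and Tnc (0.000381) passed, Hapln4 did not (0.0624), and the fitted log2 differences of Hapln1, Ncan and Cspg4 were 1.003, 1.47 and -1.28. Hapln1 changed sign in the myelin comparison under the other threshold (-0.0021) and unthinned (-0.033), and Mdk between the cultures with the replicate block (-0.18), without GL261 replicate 1 (-0.092) and without GL261-GSCs replicate 3 (-0.079), with 0.17 the highest value without a library. Mdk and Hapln1 were called under none of these. The cause of these differences was not tested. Levels under 1 CPM rest on under 100 UMIs a library, and folds of Ptprz1, Tnr and Hapln1 on 4 to 10 UMIs in GL261.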

Other observations

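The protein-coding genes on either side of the 9 genes were read out by position alone. Edil3, next to Hapln1 on chromosome 13 and the gene of a secreted integrin-binding protein, was at 4.75 and 6.54 CPM in GL261 and at 0.258, 0.207, 0.338 and 0.934 CPM in GL261-GSCs replicates 1 to 4 (log2 difference -3.75, SE 0.58, edgeR adjusted p = 0.00410), so Hapln1 lies between a gene that was lower in GL261-GSCs and one, Vcan, that was higher. Aass, a lysine breakdown gene next to Ptprz1, had 1 UMI in each GL261 library and 46, 27, 36 and 19 UMIs in GL261-GSCs replicates 1 to 4. On the other side of Ptprz1, Fam3c was at 50.6 and 50.7 CPM in GL261 and at 91.6, 86.8, 92.3 and 77.0 CPM in GL261-GSCs (log2 difference 0.78, SE 0.13, edgeR adjusted p = 0.00524). Isg20 next to Acan was lower (log2 difference -1.62, SE 0.16, edgeR adjusted p = 0.000746), and Xrcc4 next to Vcan was higher (0.65, SE 0.18, edgeR adjusted p = 0.0376). Odf3l1 next to Cspg4 (1.42, SE 0.46, edgeR adjusted p = 0.0559), Elp6 next to Cspg5 (0.35, SE 0.34) and 4930523C07Rik next to Tnr (0.04, SE 0.79) did not pass. Rfxank next to Ncan, Cop1 on the other side of Tnr, and Snx33 on the other side of Cspg4 did not pass either, at log2 differences of -0.24 (SE 0.17), -0.16 (SE 0.11) and 0.00 (SE 0.27).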
